A study of Mus musculus with 40 samples.

Results

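Described here are 7 genes that mark the barrier state of blood vessels, of 54307 genes listed for the eye. *Plvap* and *Car4* stand for the fenestrated choriocapillaris, and *Mfsd2a*, *Slc2a1*, *Cldn5*, *Abcb1a* and *Ocln* for vessels of the blood-retina barrier. They were taken by symbol from a list of endothelial markers, and all 7 were found and passed the minimum mean of 1 normalized count in both tissues. RNA came from choroid and retina of the same 20 mice, collected 3 days after 6 laser burns per eye, which break Bruch's membrane and start choroidal neovascularization (CNV). The mice, of C57BL/6J background, fell into 4 groups of 5 by genotype and diet, giving 40 libraries. All mice carried floxed *Tgfbr2* alleles and had received tamoxifen eye drops from an age of 6 to 7 weeks. *Tgfbr2ΔEC* mice carried in addition the tamoxifen-inducible *Cdh5*-CreERT2, which is active in endothelial cells, and controls were littermates without it. PLX5622 (+ PLX), an inhibitor of the CSF1 receptor that depletes mononuclear phagocytes (MP), was fed from the first tamoxifen dose on, while – PLX mice received control food.

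Capillaries of the choroid are fenestrated and leaky, and the diaphragms that span their pores are built from the *Plvap* product. Vessels within the retina form the inner blood-retina barrier, in which tight junctions seal the cells, pumps and carriers control what crosses, and vesicle traffic is held low. The outer barrier is formed by the retinal pigment epithelium (RPE), which lies on the choroid and uses some of the same junction and transport proteins, among them occludin and the glucose transporter encoded by *Slc2a1*.

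Values are normalized counts, which are read estimates divided by a factor for library depth, and 1 normalized count was worth about 1 read. Both tissues had been scaled together, and a choroid library held approximately 21583339 to 28252868 reads and a retina library 20987041 to 30319836. The dissected choroid held RPE, muscle and some neural retina. All 8 RPE markers and all 6 skeletal muscle markers tested were higher in choroid, and all 10 neural retina markers were higher in retina. The neural retina score (mean log2 of 10 photoreceptor genes) of the choroids ranged from 7.62 to 12.9, and its range was 11.3 to 12.9 in *Tgfbr2ΔEC* – PLX against 7.76 to 10.6 in control – PLX choroids. *Tgfbr2* itself, counted over the whole gene and not over the floxed part alone, had between 9836 and 10849 normalized counts in choroids of control – PLX mice and between 8729 and 11303 in those of *Tgfbr2ΔEC* – PLX mice. In whole tissue, fewer endothelial cells and less RNA per endothelial cell cannot be told apart.

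*Plvap* was the gene that separated the tissues most among the 7, and the barrier genes too were higher in choroid than in retina. Of the 7 genes, 6 were higher in choroid, against 40.8% of the 24317 genes tested (limma, adjusted p at or under 0.05). Relative to the pan-endothelial score, a mean over 12 genes that most endothelial cells express, *Plvap* was higher in choroid and the 5 barrier genes and *Car4* were lower, as were 90.3% of all genes tested on that scale. The plot of all libraries by gene shows both patterns before this adjustment.

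**Figure D1:**
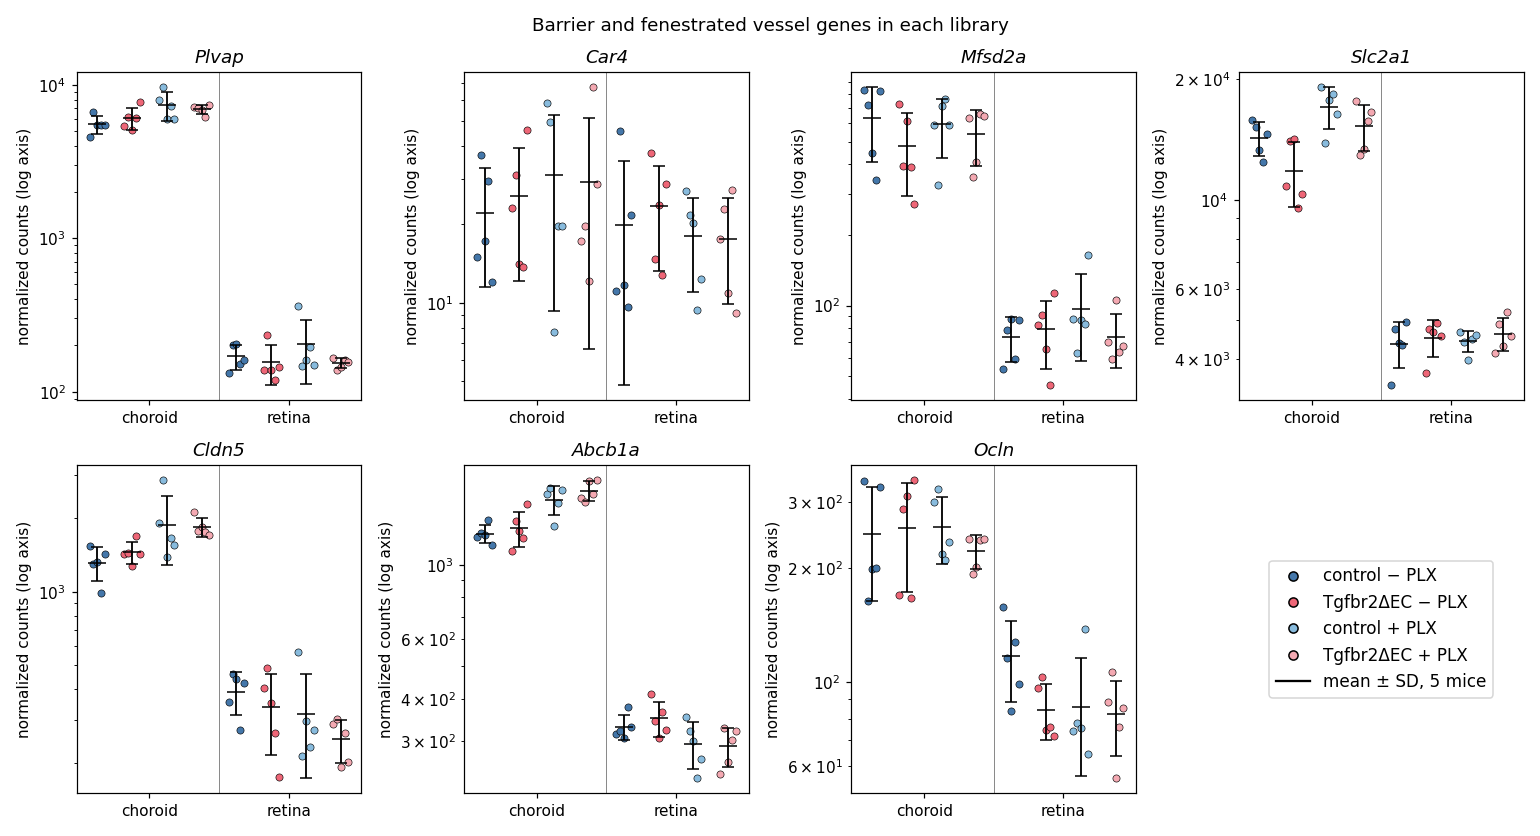
Normalized counts (log axis) of each of the 7 genes in every library, by tissue, genotype and diet; each point is 1 mouse and bars give the mean ± SD of 5 mice. *Plvap* lies at 4580 or above in every choroid and at 363 or below in every retina, whereas *Car4* overlaps between the tissues.

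*Plvap* (ENSMUSG00000034845, chromosome 8, 71948674 to 71964506, minus strand; all positions are GRCm39) encodes the plasmalemma vesicle-associated protein of fenestral and caveolar diaphragms. In control – PLX choroids its values were 4580, 6606, 5499, 5458 and 5437 normalized counts, and in *Tgfbr2ΔEC* – PLX choroids 5421, 6135, 5031, 6078 and 7685. With PLX they were 8007, 9691, 6010, 7229 and 5952 in control and 7151, 7079, 6819, 6197 and 7330 in *Tgfbr2ΔEC* choroids. The highest of the 20 choroids was thus a control + PLX choroid, and the 4 groups overlapped. In the retina the 20 values ranged from 120 to 363 with a mean of 170 ± 53.2 (SD, n = 20 mice), against 6470 ± 1194 (SD, n = 20) in choroid. The log2 difference was 5.26 (95% interval 5.08 to 5.45, adjusted p = 4.42e-35 from limma), a 38.4-fold difference, and it was positive in 20 of 20 mice. This fit, like those of the tissue differences below, did not pair the tissues of a mouse. With the tissues paired by mouse, the adjusted p from limma was 1.08e-22. An exact sign-change test over the 20 mice gave p = 1.91e-06, two-sided, the smallest it can give.

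*Car4* (ENSMUSG00000000805, chromosome 11, 84848020 to 84856879), a membrane-bound carbonic anhydrase, was the least abundant of the 7 genes in both tissues. Its values were 15.0, 37.1, 17.3, 29.4 and 12 normalized counts in control – PLX choroids and 11.1, 45.6, 11.7, 9.6 and 21.7 in the retinae of the same mice. Over all mice it ranged from 7.7 to 67.6 in choroid and from 9.14 to 45.6 in retina, so the tissues overlapped almost entirely. The log2 difference was 0.35 (95% interval -0.14 to 0.85, adjusted p = 0.18 from limma), which did not pass the threshold. A tissue difference was thus not shown for *Car4*, which is listed as a gene of the choriocapillaris. The interval includes a choroid excess of up to 0.85, and fold changes of genes this low come out too small on this scale.

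*Slc2a1* (ENSMUSG00000028645, chromosome 4, 118965908 to 118996365) encodes GLUT1, the glucose transporter of barrier endothelium and of the RPE. It was the most abundant of the 7 genes per length in both tissues, with 3111 normalized counts per kilobase of exon in choroid and 958 in retina. Its values were 15799, 15188, 13321, 12446 and 14572 normalized counts in control – PLX choroids and 3444, 4753, 4401, 4328 and 4958 in the retinae of these mice. No choroid lay below 9527 and no retina above 5236. The log2 difference between tissues was 1.68 (95% interval 1.57 to 1.80, adjusted p = 8.05e-26 from limma).

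*Mfsd2a* (ENSMUSG00000028655, chromosome 4, 122840643 to 122855244, minus strand) encodes a lysophospholipid carrier that holds down transcytosis in barrier vessels. Its values were 833, 717, 450, 343 and 826 normalized counts in control – PLX choroids and 53.6, 78.8, 87.5, 59.0 and 87.0 in the retinae. Every choroid, at 270 or above, exceeded every retina, at 164 or below. The log2 difference was 2.77 (95% interval 2.48 to 3.06, adjusted p = 7.59e-20 from limma), the largest among the barrier genes.

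*Cldn5* (ENSMUSG00000041378, chromosome 16, 18595597 to 18597012) encodes claudin-5, the main claudin of endothelial tight junctions. Its choroid values ranged from 986 to 2861 normalized counts and its retina values from 175 to 566, without overlap, and the log2 difference was 2.36 (95% interval 2.13 to 2.59). *Ocln* (ENSMUSG00000021638, chromosome 13, 100630334 to 100689535, minus strand), which encodes the tight junction protein occludin, ranged from 164 to 343 in choroid and from 55.5 to 158 in retina, with a log2 difference of 1.41 (95% interval 1.17 to 1.64). The adjusted p from limma was 4.20e-21 for *Cldn5* and 5.39e-14 for *Ocln*. Part of the *Ocln* transcript is shared, at 95% identity or more over at least 100 bases, with transcripts of 129 other genes, so that its count is less certain than those of the others.

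*Abcb1a* (ENSMUSG00000040584, chromosome 5, 8710022 to 8798575) encodes P-glycoprotein, the efflux pump that keeps many drugs out of brain and retina. Its choroid values ranged from 1100 to 1784 normalized counts and its retina values from 232 to 414, and the log2 difference was 2.18 (95% interval 2.07 to 2.29, adjusted p = 3.86e-30 from limma). The neighbouring paralog *Abcb1b* matches it at 87.3% identity over 4021 bases and more closely over shorter stretches, so the split of reads between them carries some uncertainty. Transcripts of 2 other genes, *Abcb1b* among them, share at least 100 bases with it at 95% identity or more. *Abcb1b* was less abundant, with 128 to 389 normalized counts in the choroids and 4.41 to 86.7 in the retinae.

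Per kilobase of exon, the order of mean levels in choroid was *Slc2a1*, *Plvap* (1684), *Cldn5* (1143), *Abcb1a* (233), *Mfsd2a* (210), *Ocln* (26.2) and *Car4* (7.88). The length was that of all annotated exons of a gene together, not of the transcript expressed, and the order depends on it. The ranges of the mice overlapped between *Slc2a1* and *Plvap*, between *Plvap* and *Cldn5*, between *Abcb1a* and *Mfsd2a*, and between *Ocln* and *Car4*. In retina the order of levels per kilobase was *Slc2a1*, *Cldn5* (229), *Abcb1a* (51.4), *Plvap* (44.4), *Mfsd2a* (30.2), *Ocln* (9.85) and *Car4* (5.78), and from *Abcb1a* downward neighbouring ranges overlapped, except for *Mfsd2a* (17.1 to 61.4) and *Ocln* (5.92 to 16.8). *Plvap* thus moved from above *Cldn5* to below it. Within a library, the ratio of *Plvap* to *Cldn5* normalized counts was 2.99 to 5.53 in the 20 choroids and 0.339 to 0.838 in the 20 retinae, with no overlap.

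Endothelial genes in general were also higher in choroid. Of the 12 pan-endothelial genes 11 were higher in choroid, with a median log2 difference of 3.66 beside -0.012 over all genes tested, and their score was 11.6 ± 0.162 (SD, n = 20) in choroid and 7.88 ± 0.2 (SD, n = 20) in retina. Expressing each gene relative to this score lowers the median difference of all genes to -3.71. The 12 genes ran from 0.12 for *Kdr* to 6.98 for *Emcn*, with *Emcn* and *Eng* (5.37) above the 5.26 of *Plvap*, and with *Flt1* (0.99) and *Kdr* below all barrier genes, so the direction relative to a single endothelial gene depends on which is taken. Relative to the score *Plvap* was still higher in choroid, by a log2 difference of 1.56 (95% interval 1.36 to 1.77, adjusted p = 1.26e-17 from limma). The barrier genes were lower, by log2 differences of -0.93 for *Mfsd2a*, -1.34 for *Cldn5*, -1.53 for *Abcb1a*, -2.02 for *Slc2a1* and -2.29 for *Ocln*, and *Car4* by -3.35. All 6 passed the threshold, which is near the share of all genes that passed in this direction, and each of the 6 lay above the median of all genes on this scale. The RPE score was 13.4 ± 0.25 (SD, n = 20) in choroid and 9.01 ± 0.517 (SD, n = 20) in retina, and the part of RPE in the tissue differences of *Slc2a1* and *Ocln* was not tested.

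**Figure D2:**
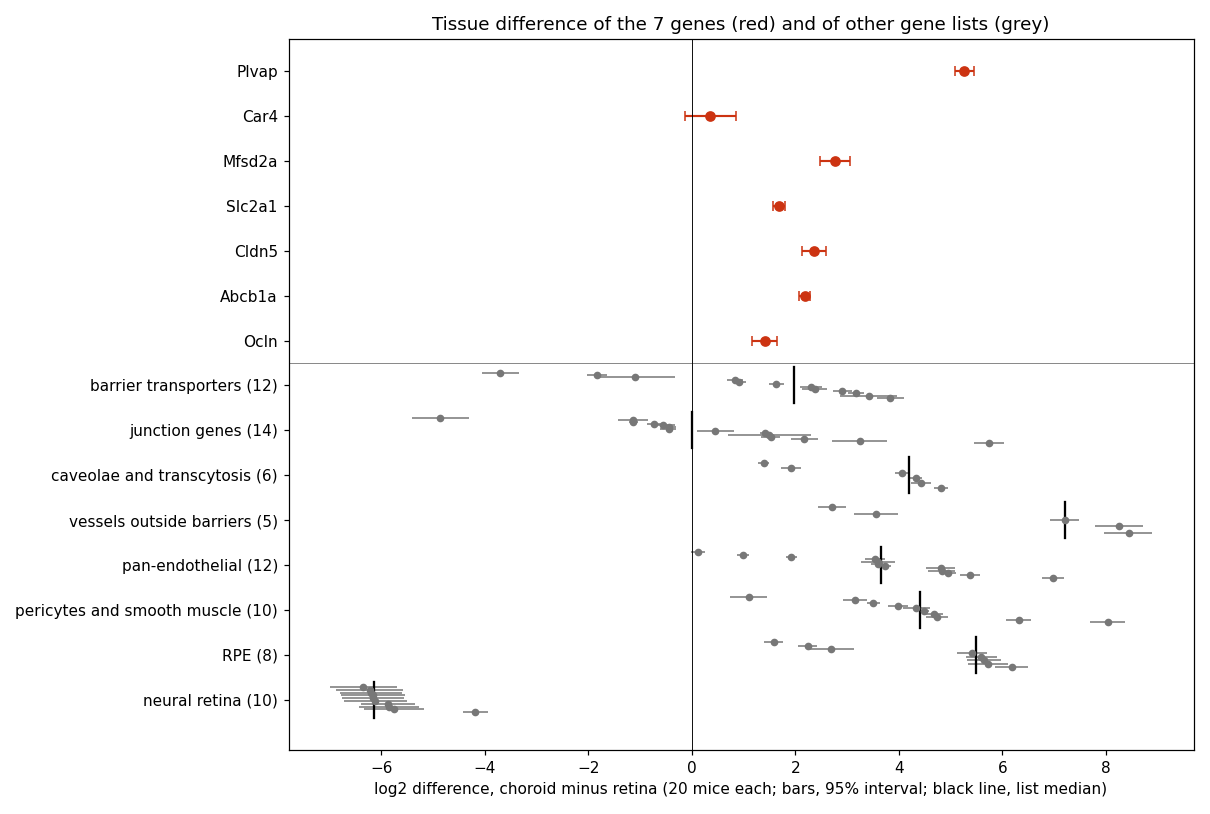
Log2 difference between choroid and retina (x axis, 20 mice each, limma) for the 7 genes in red and, in grey, for 8 other gene lists with the number of genes in parentheses; horizontal bars are 95% intervals and black lines list medians. *Plvap* lies at 5.26, the barrier genes between 1.41 and 2.77, and the pan-endothelial median at 3.66.

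Over all genes tested, 40.8% were higher in choroid and 41.1% in retina, against which the counts of other genes of the same systems can be read. Of 12 further barrier transporters 9 were higher in choroid and 3 in retina, with a median log2 difference of 1.97. Those higher in choroid with the lowest p were *Abcc4* (3.17) and *Slco1a4* (2.91), an organic anion carrier of barrier vessels, and *Slc22a8* (3.83). The 3 higher in retina were the neuronal glucose transporter gene *Slc2a3* (-3.70), the transferrin receptor gene *Tfrc* (-1.83) and *Slc38a5* (-1.09), a glutamine carrier. Of 14 further junction genes 7 were higher in choroid, with *Cldn1* (5.75), *Jam3* (1.41) and *Lsr* (1.52) first by p, and 7 in retina, among them *Marveld3* (-4.86) and *Jam2* (-0.73), which is near the shares over all genes. All 6 genes of caveolae were higher in choroid, with a median log2 difference of 4.20, among them the coat genes *Cavin1* (4.82) and *Cavin2* (4.33) and the gene *Ehd2* (4.06). All 5 genes of vessels outside barriers were higher in choroid too, with a median of 7.21, first *Gpihbp1* (7.21), *Cd300lg* (8.44) and *Esm1* (8.26). Of these, *Gpihbp1* and *Cd300lg* had means below 1 normalized count in retina and reached the minimum mean through choroid alone. Their log2 differences are therefore lower bounds, and so is the median, which is the value of *Gpihbp1*. Among the genes of this list that reached that mean in both tissues, *Esm1* gave 8.26, *Fabp4* 3.56 and *Rgcc* 2.70.

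Reference promoters are shown for *Plvap*, the gene that separated the tissues most, and for *Slc2a1*, *Cldn5* and *Abcb1a*, the genes that rose together with PLX in choroid as described further on. Each is the 200 bases before the start of the main transcript in GENCODE release 39, on the gene's strand, at chr8:71964507-71964706 (minus strand), chr4:118965708-118965907, chr16:18595397-18595596 and chr5:8709822-8710021 of GRCm39. Capitals mark the letters of 3 motifs searched on both strands: the core of ETS factors, which include endothelial regulators (GGAA or TTCC), the SMAD box read by effectors of TGFβ signaling (GTCT or AGAC), and the TCF/LEF motif of Wnt signaling (CTTTGAT and its variant with a final A, with their complements).
Plvap promoter: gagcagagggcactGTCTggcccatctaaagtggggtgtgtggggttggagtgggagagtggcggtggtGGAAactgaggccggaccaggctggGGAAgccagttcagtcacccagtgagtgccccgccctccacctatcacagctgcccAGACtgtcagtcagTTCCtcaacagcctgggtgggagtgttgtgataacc
Slc2a1 promoter: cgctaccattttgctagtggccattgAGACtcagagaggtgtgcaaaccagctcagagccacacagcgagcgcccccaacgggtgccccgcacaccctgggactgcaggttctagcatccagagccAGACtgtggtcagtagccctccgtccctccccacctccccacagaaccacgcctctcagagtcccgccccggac
Cldn5 promoter: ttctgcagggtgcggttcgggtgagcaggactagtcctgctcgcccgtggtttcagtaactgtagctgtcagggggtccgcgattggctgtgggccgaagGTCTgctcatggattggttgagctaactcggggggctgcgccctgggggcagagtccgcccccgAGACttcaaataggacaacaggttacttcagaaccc
Abcb1a promoter: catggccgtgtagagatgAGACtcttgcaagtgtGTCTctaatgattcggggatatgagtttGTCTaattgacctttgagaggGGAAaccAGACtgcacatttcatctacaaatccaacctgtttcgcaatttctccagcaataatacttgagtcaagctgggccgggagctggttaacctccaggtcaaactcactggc
The ETS core occurred 3 times in the *Plvap* and 1 time in the *Abcb1a* promoter and 0 times in those of *Slc2a1* and *Cldn5*, whereas 89.6% of 21770 promoters of this length held it. The SMAD box occurred 2 times for *Plvap*, *Slc2a1* and *Cldn5* and 4 times for *Abcb1a*, beside 75.7% of all promoters with at least 1. The TCF/LEF letters were in 0 of the 7 promoters of the genes described here and in 5.87% of all promoters. A match to such short letters is a description of the sequence, not a site that was shown to be used.

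With the PLX diet, *Abcb1a*, *Cldn5* and *Slc2a1* rose in choroid, by 1.25-fold to 1.33-fold as a mean over both genotypes, and *Plvap* came close to the threshold. In retina 0 of the 7 genes passed it. In choroid 3 of 7 genes were thus higher with PLX, against 2.07% of the 23619 genes tested, and 0 were lower. This comparison over both genotypes was added after the values had been seen. Within one genotype *Abcb1a* alone passed, 1 of 7 genes in controls against a background of 0.601% and 1 of 7 in *Tgfbr2ΔEC* mice against 0.559%. The numbers of genes behind these shares were not stable. In controls 142 genes were higher with PLX, against 34 with 2 groups alone and 67 to 257 without mouse 1, 5, 11, 12, 14 or 15 (257 without mouse 12). In *Tgfbr2ΔEC* mice 132 were higher, against 32 with the neural retina score as covariate and 49 to 79 without mouse 6, 8, 9, 18, 19 or 20. Over both genotypes 489 were higher, against 302 with that covariate and 772 without mouse 12. Relative to the pan-endothelial score 31, 24 and 65 genes were higher in controls, in *Tgfbr2ΔEC* mice and over both genotypes.

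*Abcb1a* gave the clearest difference. In control choroids its values were 1209, 1239, 1225, 1353 and 1143 normalized counts – PLX and 1620, 1691, 1305, 1523 and 1661 + PLX. In *Tgfbr2ΔEC* choroids they were 1100, 1344, 1257, 1202 and 1511 – PLX and 1583, 1540, 1776, 1620 and 1784 + PLX. In *Tgfbr2ΔEC* mice the diets did not overlap, and in controls 1 of the + PLX choroids lay within the range of the – PLX choroids. The log2 difference was 0.33 (95% interval 0.15 to 0.52, adjusted p = 0.0392 from limma; exact permutation p = 0.0159) in controls and 0.38 (95% interval 0.19 to 0.57, adjusted p = 0.0177; exact permutation p = 0.00794, the smallest that 5 against 5 mice allow) in *Tgfbr2ΔEC* mice. As a mean over both genotypes it was 0.36 (95% interval 0.22 to 0.49, adjusted p = 0.000707 from limma), from 1258 to 1610 normalized counts. The call in controls was lost without mouse 1, 2, 3, 5, 11, 12, 14, 15 or 19, with log2 differences of 0.304 to 0.342 and adjusted p up to 0.114. The call in *Tgfbr2ΔEC* mice was lost without mouse 6, 9, 18 or 20, with 0.324 to 0.356 and adjusted p up to 0.0649, while the mean over both genotypes kept its call without any 1 mouse. With the neural retina score in the fit the log2 difference was 0.333 in controls (adjusted p = 0.0506 from limma) and 0.397 in *Tgfbr2ΔEC* mice (adjusted p = 0.0827). Neither passed, while the mean over both genotypes did. In controls the call was also lost with 2 groups alone (log2 difference 0.334, adjusted p = 0.11) and with no minimum mean (0.334, adjusted p = 0.0544). Relative to the pan-endothelial score the log2 difference was 0.062 in controls (adjusted p = 0.754 from limma) and 0.164 in *Tgfbr2ΔEC* mice (adjusted p = 0.351), and neither passed.

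For *Cldn5* the values were 1534, 1295, 1327, 986 and 1422 normalized counts in control – PLX and 1904, 2861, 1390, 1663 and 1546 in control + PLX choroids. In *Tgfbr2ΔEC* choroids they were 1423, 1434, 1271, 1688 and 1424 – PLX and 2124, 1778, 1834, 1755 and 1712 + PLX, so that all 5 + PLX choroids lay above all 5 – PLX choroids in this genotype, whereas the controls overlapped. The mean log2 difference was 0.41 (95% interval 0.19 to 0.64, adjusted p = 0.0192 from limma), and relative to the pan-endothelial score it was 0.17 and did not pass (adjusted p = 0.303). Within a genotype it was 0.48 in controls (adjusted p = 0.0991 from limma) and 0.35 in *Tgfbr2ΔEC* mice (adjusted p = 0.257), and without mouse 13 the control difference was 0.574 and passed (adjusted p = 0.0339). Without mouse 12, whose 2861 was the highest value, the control difference was 0.314 and did not pass.

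For *Slc2a1* the values were 19077, 13839, 17796, 18333 and 16379 normalized counts in control + PLX choroids, against the 12446 to 15799 given above without PLX. In *Tgfbr2ΔEC* choroids they were 10802, 14027, 14197, 9527 and 10337 – PLX and 17644, 12952, 13354, 15723 and 16579 + PLX, and the diets overlapped in both genotypes. The mean log2 difference was 0.32 (95% interval 0.14 to 0.50, adjusted p = 0.0277 from limma). The call was lost without mouse 3, 4, 6, 9, 11, 14, 16, 19 or 20, with log2 differences of 0.283 to 0.312 and adjusted p up to 0.0574. It was also lost when the neural retina score entered the fit as covariate (log2 difference 0.273, adjusted p = 0.116) and relative to the pan-endothelial score (0.076, adjusted p = 0.627 from limma).

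For *Plvap* the mean log2 difference was 0.30 (95% interval 0.11 to 0.49, adjusted p = 0.0503 from limma), from 5793 to 7146 normalized counts. It passed without mouse 2, 10, 13 or 15, with log2 differences of 0.336 to 0.347 and adjusted p down to 0.0157. With the neural retina score in the fit the *Plvap* difference was 0.251 and did not pass (adjusted p = 0.183 from limma). *Mfsd2a*, *Ocln* and *Car4* gave log2 differences of 0.08 (95% interval -0.36 to 0.51), -0.02 (95% interval -0.36 to 0.32) and 0.16 (95% interval -0.61 to 0.94). The intervals of *Mfsd2a* and *Car4* include changes as large as those of the 3 genes that passed. *Abcb1b* fell by 0.54 on the log2 scale (adjusted p = 0.0373 from limma), from 311 to 220 normalized counts, against the direction of *Abcb1a*.

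Some of the genes common to endothelial cells rose as well. The counts that follow are to be read against 2.07% of all genes tested that were higher and 5.06% that were lower over both genotypes. Of the 12 pan-endothelial genes 6 were higher and 0 lower with PLX in choroid, with a median log2 difference of 0.25 beside 0.001 over all genes, led by *Esam* (0.35), *Flt1* (0.31), a VEGF receptor, and *Tie1* (0.27). The pan-endothelial score ranged from 11.3 to 11.6 over the 10 – PLX choroids and from 11.5 to 11.9 over the 10 + PLX choroids. Of 12 further barrier transporters *Slco1a4* (0.47) and *Abcg2* (0.23), another efflux pump, rose and *Abcb1b* fell, and of 14 junction genes *Cldn1* (0.50) and *Tjp1* (0.26) rose. Of the 6 caveolar genes *Cavin2* (0.27) rose, 0 of 5 genes of vessels outside barriers passed (*Rgcc*, at 0.57, had the lowest p), and of 10 pericyte and smooth muscle genes *Rgs5* (0.45) and *Myh11* (0.74) rose. Of 17 MP markers 16 fell, with a median log2 difference of -2.60, and their summed level over all choroids ranged from 11964 to 54407 normalized counts. Of the 8 RPE markers 0 passed, with a median of 0.24, and of the 10 neural retina markers 0 passed over both genotypes, with a median of -1.10. In *Tgfbr2ΔEC* mice alone the neural retina median was -2.19 and 1 of 10 fell, beside 3.5% of all genes, and in controls it was 0.23 and 0 passed, beside 3.15% of all genes lower. The mean log2 of Müller glia and astrocyte genes was 10.1 ± 0.444 – PLX and 9.47 ± 0.53 + PLX in *Tgfbr2ΔEC* choroids (SD, n = 5). In control choroids it was 9.42 ± 0.747 and 9.62 ± 0.576 (SD, n = 5). The part of these tissues in the diet effects on the 7 genes was not tested beyond the fits with the neural retina score. The MP score was 10.8 to 11.1 in – PLX and 7.92 to 8.85 in + PLX choroids. Relative to the pan-endothelial score, which moves the median of all genes to -0.24, the log2 differences were 0.11 for *Abcb1a*, 0.17 for *Cldn5* and 0.08 for *Slc2a1*, and 0 of the 7 genes passed the threshold (limma, adjusted p between 0.271 and 0.904) or had an unadjusted p under 0.05.

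**Figure D3:**
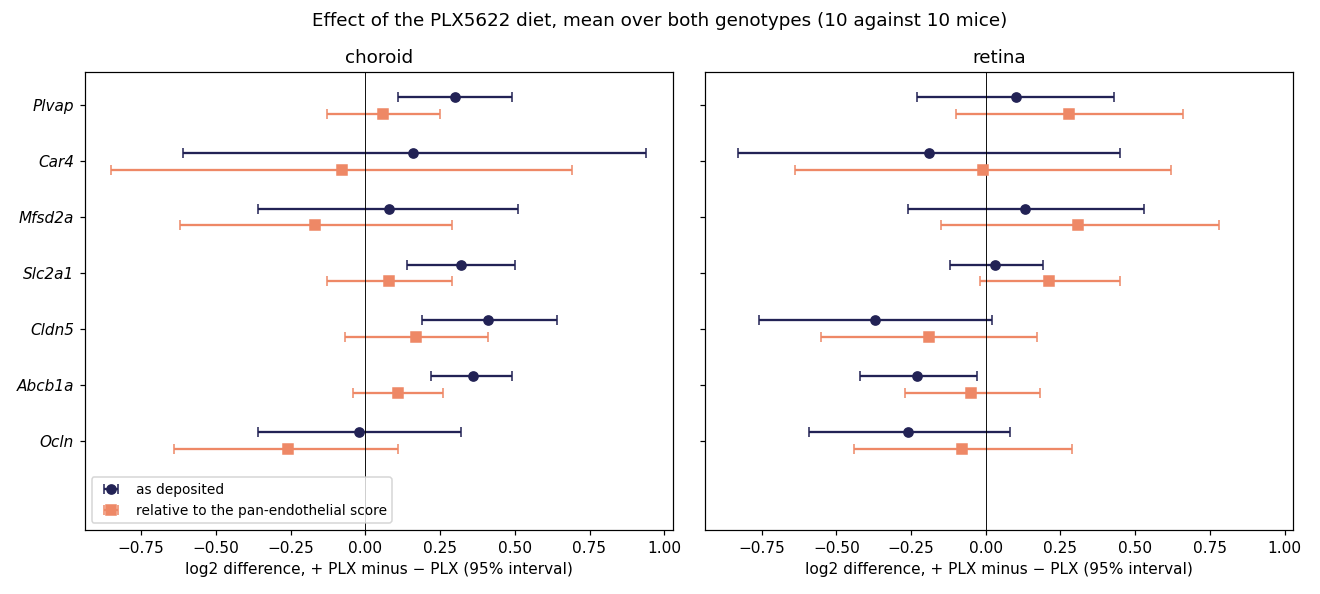
Log2 difference between + PLX and – PLX mice (x axis, mean over both genotypes, 10 against 10 mice, bars are 95% intervals) for the 7 genes in choroid and retina, as deposited (circles) and relative to the pan-endothelial score (squares). In choroid *Abcb1a*, *Cldn5* and *Slc2a1* lie at 0.36, 0.41 and 0.32 as deposited and at 0.11, 0.17 and 0.08 relative to the score.

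In retina *Abcb1a* had values of 314, 321, 306, 378 and 330 normalized counts in control – PLX and 352, 322, 299, 232 and 265 in control + PLX mice. They were 414, 344, 306, 366 and 324 in *Tgfbr2ΔEC* – PLX and 239, 327, 259, 302 and 320 in *Tgfbr2ΔEC* + PLX mice, and the diets overlapped. The mean log2 difference was -0.23 (95% interval -0.42 to -0.03, adjusted p = 0.599 from limma) and that of *Cldn5* -0.37 (95% interval -0.76 to 0.02, adjusted p = 0.826). The other 5 genes gave between -0.26 (*Ocln*) and 0.13 (*Mfsd2a*). Of the 7 genes 0 passed and 1 had an unadjusted p under 0.05, while 1.09% of the 23243 genes tested in retina passed. Of the 12 pan-endothelial genes 0 passed, with a median of -0.16, and 15 of 17 MP markers fell.

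The diet effect on *Abcb1a* differed between the tissues. Its log2 difference was larger in choroid than in retina by 0.58 (95% interval 0.36 to 0.80, adjusted p = 0.000864 from limma), and with the mouse as a replicate block, which pairs the tissues, the adjusted p was 0.00988. It was 1 of 7 genes past the threshold in this comparison, against 1.37% of the 24317 genes tested (332 genes, and 620 without mouse 15). For *Cldn5* the difference of the effects was 0.79 (95% interval 0.33 to 1.24, adjusted p = 0.0746 from limma), and it passed without mouse 10 (0.890) or mouse 11 (0.893). For *Slc2a1* and *Plvap* it was 0.29 (95% interval 0.06 to 0.52) and 0.20 (95% interval -0.17 to 0.57). The pan-endothelial genes *Tek* (0.58) and *Tie1* (0.64) and the gene *Tgfbr2* (0.81) also passed in this comparison. For *Tgfbr2*, mean normalized counts in control mice were 10503 – PLX and 11155 + PLX in choroid, and 213 and 123 in retina. In *Tgfbr2ΔEC* mice they were 10176 and 11220 in choroid, and 178 and 113 in retina. Relative to the pan-endothelial score the difference for *Abcb1a* was 0.16 and did not pass (adjusted p = 0.317 from limma).

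Between genotypes 0 of the 7 genes passed the threshold in either tissue and either diet by limma. In the fit reported, 1 of 23619 genes passed in choroid without PLX (0.00423%) and 1 with PLX (0.00423%), and 0 of 23243 in retina without PLX (0%) and with PLX (0%). At an unadjusted p under 0.05 there were 2184 and 889 genes in choroid and 758 and 629 in retina, and *Slc2a1* was the only one of the 7 genes among them, in choroid without PLX. The count of passing genes in choroid without PLX was 411 without mouse 15, a control + PLX mouse that enters through the shared variance, 303 with 2 groups alone, 2 without mouse 4 or mouse 8 and 0 with a minimum mean of 10, and 0 of the 7 genes passed in any of these fits. With PLX the count in choroid was 0 or 1 without any 1 mouse, and in retina with PLX it was 1 without mouse 12.

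The *Slc2a1* values of the 2 genotypes in choroids without PLX are given above, with means of 14265 ± 1369 (SD, n = 5) in control and 11778 ± 2180 (SD, n = 5) in *Tgfbr2ΔEC* mice. Of the 5 *Tgfbr2ΔEC* choroids 3 lay below all controls and the other two within their range. The log2 difference was -0.29 (95% interval -0.55 to -0.03, adjusted p = 0.442 from limma; exact permutation p = 0.0794). With PLX it was -0.17 (95% interval -0.42 to 0.09). The RPE score of the – PLX choroids was 13.2 to 13.7 in control and 12.9 to 13.6 in *Tgfbr2ΔEC* mice, and 0 of 8 RPE markers passed between these groups, with a median log2 difference of -0.26. The 10 neural retina markers had a median of 2.48 there, and 0 of them passed. With the neural retina score in the fit the *Slc2a1* difference was -0.184 (adjusted p = 1 from limma). It was -0.38 relative to the pan-endothelial score (95% interval -0.68 to -0.08, adjusted p = 0.423 from limma; exact permutation p = 0.0397), which did not pass either. The part of RPE in it was not tested, beyond the correlation across mice given further on.

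*Plvap* differed between genotypes by 0.13 (95% interval -0.14 to 0.40) without PLX and by -0.07 (95% interval -0.34 to 0.20) with PLX in choroid on the log2 scale. The junction gene *Cldn5* gave 0.15 (95% interval -0.17 to 0.47) and 0.02 (95% interval -0.30 to 0.34), and *Abcb1a* gave 0.05 (95% interval -0.14 to 0.24) and 0.09 (95% interval -0.09 to 0.28). For *Mfsd2a* (-0.41, 95% interval -1.03 to 0.21 without PLX), *Ocln* and *Car4* the intervals were wider, and for *Car4* without PLX it ran from -0.92 to 1.27. With the neural retina score in the fit, the differences in choroid without PLX were 0.253 for *Plvap*, 0.147 for *Cldn5* and 0.030 for *Abcb1a*. They were -0.452 for *Mfsd2a*, 0.086 for *Ocln* and 0.425 for *Car4*, and none passed. Without 1 mouse each, those of the fit reported ranged from 0.044 to 0.2 for *Plvap*, 0.052 to 0.211 for *Cldn5* and -0.608 to -0.224 for *Mfsd2a*. In retina the largest difference was that of *Ocln* without PLX, -0.45 (95% interval -0.92 to 0.02, adjusted p = 0.985 from limma; exact permutation p = 0.0476). Its values there were 158, 116, 83.6, 128 and 98.8 normalized counts in control and 96.5, 103, 74.4, 76.2 and 71.8 in *Tgfbr2ΔEC* mice, and the groups overlapped. The log2 difference of *Tgfbr2* between the genotypes was -0.05 (95% interval -0.24 to 0.13) in choroid without PLX.

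**Figure D4:**
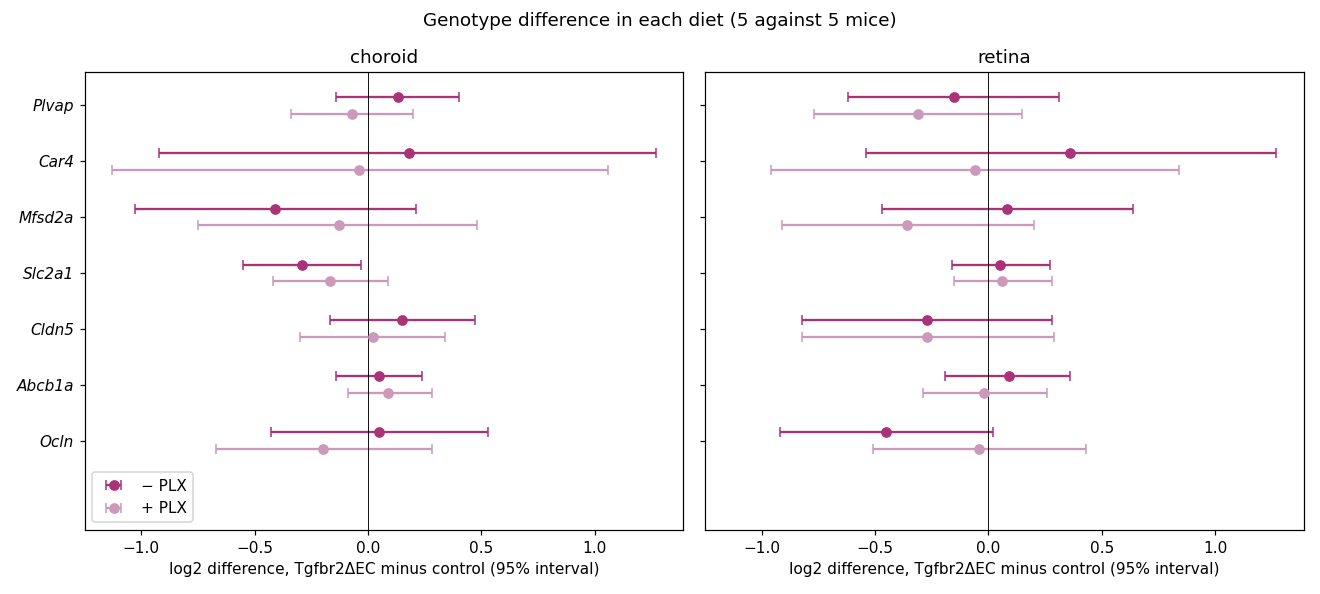
Log2 difference between *Tgfbr2ΔEC* and control mice (x axis, 5 against 5 mice, bars are 95% intervals) for the 7 genes in choroid and retina, without and with PLX. All intervals include 0 except that of *Slc2a1* in choroid without PLX (-0.55 to -0.03), and those of *Car4* are the widest.

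The other vessel genes gave the same count. Between genotypes in choroid without PLX, 0 of 12 barrier transporters, 0 of 14 junction genes, 0 of 6 caveolar genes, 0 of 5 genes of vessels outside barriers and 0 of 12 pan-endothelial genes passed by limma. Their lowest p belonged to *Jam2* (0.22, unadjusted p = 0.0673), so 0 of them had an unadjusted p under 0.05. The median log2 difference of the pan-endothelial genes was 0.09 beside 0.015 over all genes. The interaction of genotype and diet passed for 0 genes in choroid and 0 in retina by limma, with 1552 and 567 genes at an unadjusted p under 0.05.

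Across mice, deviations from the group mean were compared between each of the 7 genes and 4 marker scores in each tissue, 56 relations in all. For *Slc2a1* and the RPE score in the 20 choroids, Pearson's r was 0.71 (permutation p = 0.00189, adjusted p = 0.0529) and Spearman's rho was 0.75 (permutation p = 0.00087, adjusted p = 0.0487). Without the 2 mice farthest from the median RPE score, r was 0.65. For *Plvap* and the neural retina score in the 20 retinae, r was 0.72 (permutation p = 0.00171, adjusted p = 0.0529), rho was 0.67 (permutation p = 0.00417, adjusted p = 0.117), and r was 0.72 without the 2 farthest mice. Of the 56 relations 0 passed 0.05 for r after adjustment. With the pan-endothelial score, r in choroid was 0.29 for *Plvap*, 0.28 for *Abcb1a*, 0.01 for *Cldn5* and -0.07 for *Slc2a1*, and in retina it was 0.53 for *Abcb1a* and 0.41 for *Cldn5*, of which none passed after adjustment.

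**Figure D5:**
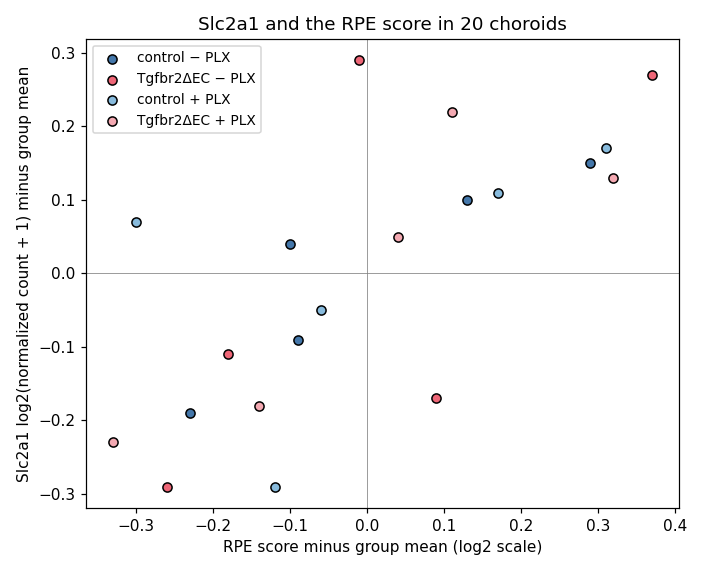
*Slc2a1*, as log2(normalized count + 1) minus its group mean (y axis), against the RPE score minus its group mean (x axis) in 20 choroids; each point is 1 mouse, coloured by group. The points rise together, with r = 0.71.

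The genes whose deviations in choroid were most like those of each gene, of 14434 with a mean of at least 50 normalized counts, were found over 20 mice and are a description, since each is the highest of many. For *Plvap* they were *Oxa1l* (r = 0.91) and *Ramp3* (0.91), for *Slc2a1* *Cldn12* (0.91) and *Car12* (0.91), and for *Cldn5* *Il10rb* (0.86) and *Cbr3* (0.85). For *Abcb1a* they were *Sult1a1* (0.87) and *Lamb2* (0.84), for *Mfsd2a* *Adam7* (0.84) and *Nek6* (0.83), for *Ocln* *Tmem220* (0.83) and *Mgll* (0.79), and for *Car4* *Slc22a17* (0.79) and *Simc1* (0.79). *Cldn12*, another claudin gene, is in the list of junction genes used here, and the other 13 are in none of the lists.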

How the data were processed

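RNA-seq of choroid and retina from 20 mice gave 40 libraries of 8 groups, 5 mice each, grouped by the sample labels. The authors quantified reads with Salmon 1.10.1 on GRCm39 (GENCODE release 29), read the estimates in through tximport and scaled them in DESeq2 1.36.0 (versions from the submitters' processing notes, with FastQC 0.11.5). The deposited signal per gene is in normalized counts. Between 42.2% and 65.2% of low values came within 0.1 of a whole number of reads, so reads could not be restored, no count test was run and the depth is approximate.

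limma 3.58.1 (R 4.3.3), with the variance allowed to follow the mean, was applied to log2(normalized count + 1) of genes whose mean reached 1, the 4 groups of a tissue in one fit or all 40 libraries for tissues. On this scale the fold changes of low genes come out too small. Adjusted p at or under 0.05 (Benjamini-Hochberg) was called. The procedure was tested on simulated data. Single genes had exact two-sided permutation tests, and correlations used 100000 resamples within groups (Python 3.11.15, numpy 2.4.6, scipy 1.17.1). Symbols, positions and exon lengths came from GENCODE release 39, and 53700 of 54307 identifiers matched. Similar transcripts came from blastn 2.17.0.

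The 7 genes, the other lists and the tests were chosen with earlier results of these data known. Named besides them are *Tgfbr2*, *Abcb1b*, of each list up to 3 called genes per direction with the lowest p (or, with none called, the gene with the lowest p), and the 2 genes most like each of the 7; of the genes this rule names for the lists of other cell types not all are printed, and 1 junction gene is not reported here. The alternatives were other pseudocounts (0.5 and 5), minimum means and scalings, a sex or neural retina score as covariate, fits of 2 groups, robust variance, the pan-endothelial score, leaving out each mouse, and a replicate block. Same-numbered libraries were taken to come from 1 mouse, and sex-linked transcripts lay on the same side in both tissues of 20 of 20 mice. The correlation of deviations between the tissues of a mouse had a median of 0.25 (-0.31 to 0.50), against -0.02 between different mice. Of the 20 choroids, 13 had their highest correlation with the retina of the same number. The sex and neuronal covariates of the authors' model were not used in the fits reported.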

Additional observations from a re-analysis of the deposited data

Results flagged for a closer look

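Abcb1a was marked because the effect of the PLX diet differed between tissues, with a log2 difference of effects of 0.58 (adjusted p = 0.000864 from limma), as described above.

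In 7 of 56 groups of 5 mice 1 value lay far from the other 4, by a gap of more than 0.71 of the group's range, where chance gives about 1 in 20 groups, or 2.8. All 7 were in retina. In control + PLX retinae mouse 11 had both *Plvap* at 363 normalized counts (others 147 to 195, gap 0.775) and *Cldn5* at 566 (others 213 to 297, gap 0.761). In the same group *Mfsd2a* was 164 in mouse 15 (others 62.6 to 87.5, gap 0.755) and *Ocln* 138 in mouse 14 (others 64.5 to 77.8, gap 0.819). *Plvap* was 234 in mouse 7 of the *Tgfbr2ΔEC* – PLX retinae (others 120 to 145, gap 0.780), where *Slc2a1* was 3688 in mouse 6 (others 4583 to 4931, gap 0.720). *Mfsd2a* was 106 in mouse 18 of the *Tgfbr2ΔEC* + PLX retinae (others 59.1 to 69.8, gap 0.773).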

How the results depend on the processing

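Of the values of the 7 genes recomputed under the alternatives other than leaving out a mouse, 686 kept their direction and their side of the threshold, 28 reversed, 11 lost and 3 gained a call; over the fits without 1 mouse each, these numbers were 1308, 63, 22 and 7. The causes of these changes were not tested. The replicate block, with the mouse shared by both tissues, could be fitted to tissue comparisons only and changed no call of the 7 genes. With it 268 genes, against 332, passed for the diet effect in choroid minus retina, and *Abcb1a* gave 0.583.

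Relative to the pan-endothelial score, which was chosen after seeing the data for the counts of all genes, 5323 genes passed for the diet effect in choroid minus retina (332 as deposited). For the diet in choroid 5542 passed over both genotypes, 65 higher and 5477 lower (1684 as deposited, 489 higher and 1195 lower), 2727 in controls, 31 higher and 2696 lower (885, 142 and 743), and 2012 in *Tgfbr2ΔEC* mice, 24 higher and 1988 lower (958, 132 and 826). The tissue differences reversed to -1.525 for *Abcb1a*, -3.347 for *Car4*, -1.343 for *Cldn5*, -0.934 for *Mfsd2a*, -2.294 for *Ocln* and -2.020 for *Slc2a1*. The diet effects in choroid reversed over both genotypes to -0.079 for *Car4* and -0.166 for *Mfsd2a*, in controls to -0.002 for *Car4*, -0.169 for *Ocln* and -0.016 for *Slc2a1*, and in *Tgfbr2ΔEC* mice to -0.155 for *Car4* and -0.013 for *Plvap*. The diet effects in choroid minus retina reversed to -0.069 for *Car4*, -0.188 for *Ocln*, -0.223 for *Plvap* and -0.137 for *Slc2a1*. The genotype differences reversed to -0.039 for *Abcb1a* and -0.039 for *Ocln* in choroid without PLX, to -0.011 for *Cldn5* in choroid with PLX, and in retina with PLX to 0.111 for *Abcb1a*, 0.068 for *Car4* and 0.089 for *Ocln*.

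With a sex score as covariate, the genotype differences in retina with PLX reversed to 0.011 for *Abcb1a* and 0.104 for *Car4*. With the neural retina score in the fit, the diet effect reversed to -0.172 for *Car4* in *Tgfbr2ΔEC* choroid, and to -0.005 for *Plvap* and -0.009 for *Slc2a1* in retina, and 534 genes (958 without it) passed for the diet in *Tgfbr2ΔEC* choroid. The calls of *Abcb1a* and *Slc2a1* lost are given above. *Plvap* passed over both genotypes with a minimum mean of 10 (adjusted p = 0.0413) and with median-of-ratios scaling (adjusted p = 0.042), and *Cldn5* passed in *Tgfbr2ΔEC* choroid with 2 groups alone (adjusted p = 0.0423).

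With 2 groups alone, 572 genes passed for the diet in control choroid (885) and 303 for the genotype in choroid without PLX (1). With a minimum mean of 10 these were 0 for that genotype comparison, and for the diet in retina 104 in controls (171) and 154 over both genotypes (254). For the genotype in choroid with PLX, 0 genes passed (1 in the fit reported) with 2 groups alone, a minimum mean of 10, a pseudocount of 5, or the neural retina or the sex score as covariate. Without 1 mouse each, the counts ranged from 278 to 620 for the diet in choroid minus retina (620 without mouse 15), from 1 to 411 for the genotype in choroid without PLX (411 without mouse 15, 2 without mouse 4 or 8), from 0 to 1 in choroid with PLX, and from 0 to 1 in retina with PLX (1 without mouse 12).

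Without 1 mouse each, genotype differences that changed sign ranged, in choroid without PLX, from -0.011 to 0.104 for *Abcb1a*, -0.066 to 0.386 for *Car4* and -0.081 to 0.187 for *Ocln*. In choroid with PLX they ranged from -0.426 to 0.267 for *Car4*, -0.076 to 0.184 for *Cldn5*, -0.336 to 0.004 for *Mfsd2a* and -0.142 to 0.033 for *Plvap*. In retina they ranged without PLX from -0.061 to 0.261 for *Mfsd2a* and -0.032 to 0.124 for *Slc2a1*, and with PLX from -0.100 to 0.051 for *Abcb1a*, -0.257 to 0.130 for *Car4* and -0.139 to 0.144 for *Ocln*. Diet effects that changed sign ranged in *Tgfbr2ΔEC* choroid from -0.304 to 0.301 for *Car4*, in control choroid from -0.032 to 0.661 for *Car4*, -0.259 to 0.141 for *Mfsd2a* and -0.028 to 0.236 for *Ocln*, and over both genotypes in choroid from -0.017 to 0.360 for *Car4*, -0.023 to 0.178 for *Mfsd2a* and -0.088 to 0.047 for *Ocln*. In retina they ranged from -0.014 to 0.181 for *Plvap* and -0.009 to 0.056 for *Slc2a1*, and in choroid minus retina from -0.219 to 0.059 for *Mfsd2a*.

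These libraries are bulk tissue with variable shares of neural retina and skeletal muscle in the choroids. The mean log2 of the muscle markers ran from 11.4 to 14.6 in choroid and from 2.46 to 4.49 in retina. The part of muscle in the tissue differences was not tested. Depth limits *Car4*, whose lowest choroid value was 7.7 normalized counts, where 3 reads were worth up to 3.56.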
